A study of Rattus norvegicus with 6 samples.

Results

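The genes described here carry the signal of prolactin, growth hormone and leptin into the cell. They are 3 receptors (Prlr, Ghr and Lepr), the kinase Jak2, the transcription factors Stat5a and Stat5b, and the feedback inhibitors Cish, Socs2 and Socs3, which makes 9 of the 14217 genes that have a probe set of their own on the array. Members were named by gene symbol, and the probe set that stands for each gene was chosen by its mean intensity over the 6 arrays. That mean is therefore a description and is not tested, and the other probe sets of a gene are shown beside it as a check. The 9 genes had 19 such probe sets.

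The tissue was the choroid plexus of the lateral ventricles of Sprague-Dawley rats, taken at embryonic day 19 (E19), at postnatal day 2 (P2) and in adulthood. All animals were of the same strain, no genotype or drug was compared, and the adult age is not given in the sources used here. The methods describe inhaled isoflurane for the pregnant females from which fetuses were taken, and name no anaesthetic for pups or adults. An effect of that anaesthesia at E19 cannot be told apart from a stage difference. RNA of each stage came from 2 pools of plexuses, each taken from several animals. Adult pools held fewer animals than those of E19 and P2, so pool size went with stage. Each pool was hybridized to 1 Affymetrix Rat Genome 230 2.0 array, which gives 6 arrays in all. The pools are separate samples of a stage, so the p-values measure the spread between pools and not between single animals. The methods name males as the adult animals obtained beside pregnant and nursing females, and the sex of the fetuses and pups is not given, so a sex difference in a hormone receptor gene cannot be told apart from a stage difference in these data.

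The receptors for prolactin, growth hormone and leptin belong to the class I cytokine receptor family and have no kinase of their own. When hormone binds, the receptor-bound kinase Jak2 phosphorylates STAT proteins, among them STAT5A and STAT5B, which pair, enter the nucleus and bind DNA. Among the genes that STAT5 switches on are Cish and Socs2, whose products damp the same receptors, and Socs3 is a comparable brake on leptin signalling. The choroid plexus is a known site of prolactin receptor and leptin receptor expression, and both have been discussed there as carriers or sensors of hormone between blood and cerebrospinal fluid.

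The values are linear intensities in arbitrary units, scaled to the same trimmed mean on every array. A probe set was tested when its mean reached 100 units, the background level used by the study, in at least 1 stage. Of the 9 genes, 5 passed (Prlr, Lepr, Jak2, Stat5a and Cish) and 4 lay under 100 units at every stage (Ghr, Stat5b, Socs2 and Socs3). The log2 intensities of 17808 probe sets were compared between stages with limma, and a difference was called at a Benjamini-Hochberg adjusted p under 0.05. At E19, 3 of the 5 tested genes were lower than in the adult (Prlr, Lepr and Stat5a) and 0 were higher, while over all tested probe sets 24.2% were called lower and 30.4% higher. At P2, 2 of the 5 were lower than in the adult (Prlr and Lepr) and 0 were higher, against 21.8% of all tested probe sets called lower and 27.4% called higher. Between P2 and E19 none of the 5 was called with limma, and the shares over all tested probe sets were 3.62% called higher and 3.5% called lower. With an intensity trend in the limma fit the count between P2 and E19 was 2 of 5 (Prlr and Lepr), where 2696 of the 17808 probe sets were called. The median log2 fold change of the 5 genes was -0.58 at E19 against the adult, -0.46 at P2 against the adult and 0.11 at P2 against E19, where the medians over all tested probe sets were 0.05, 0.04 and 0.00. Another scaling moves this balance, since centring each array on its median shifted the median of all probe sets against the adult by -0.28 at E19 and -0.26 at P2 on the log2 scale. The share of higher among all called probe sets was then 33.8% at E19 and 33.3% at P2, against 55.7% and 55.6% as deposited, and no comparison of the 5 genes with the adult changed direction.

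**Figure D1:**
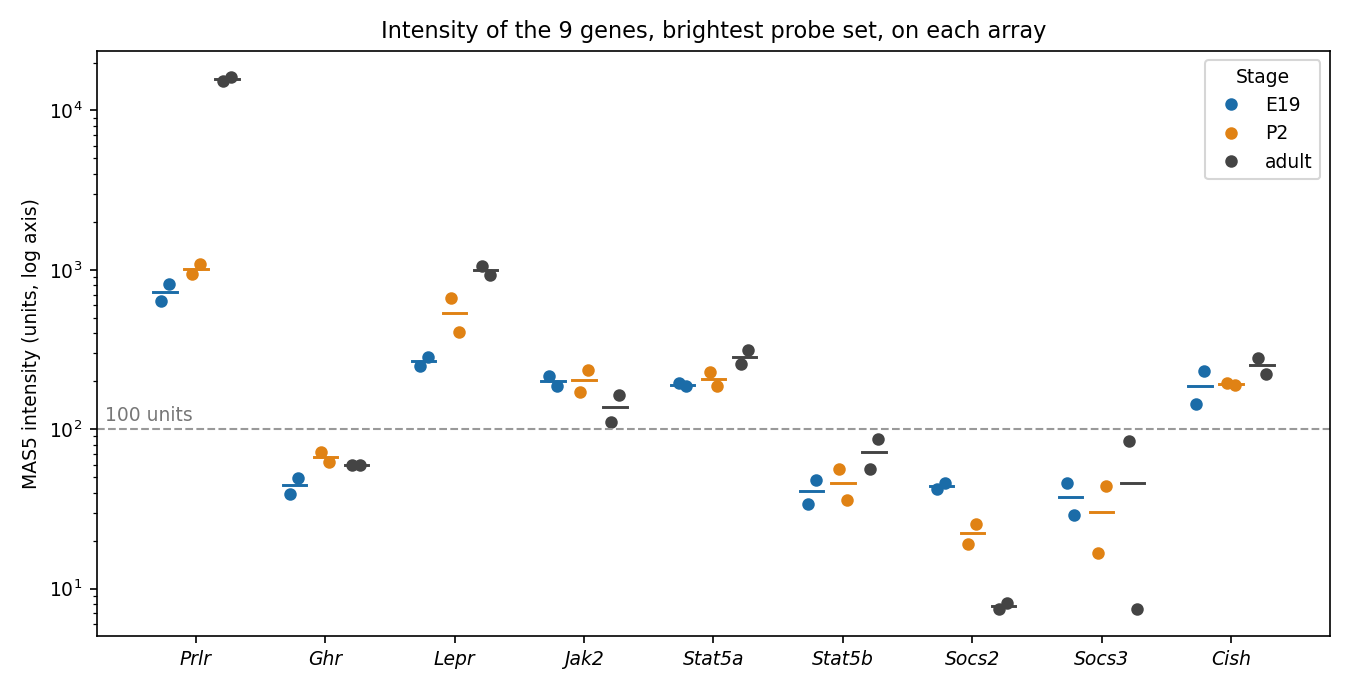
Intensity of the brightest probe set of each of the 9 genes on each of the 6 arrays, in arbitrary units on a log axis. Points are single pools at E19 (blue), P2 (orange) and in the adult (dark grey), short lines are stage means of 2 pools, and the dashed line marks 100 units. Prlr stood at 15269 and 16148 units in the adult, far above its other 4 arrays, and Ghr, Stat5b, Socs2 and Socs3 stayed under 100 units throughout.

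Prlr, the prolactin receptor, changed most among these genes. Its brightest probe set, 1370384_a_at, read 635 and 816 units at E19, 940 and 1091 units at P2 and 15269 and 16148 units in the adult. The means were 726 ± 128, 1016 ± 107 and 15708 ± 622 units (SD, n = 2 pools each), and no pool of one stage overlapped another stage. The adult level thus stood apart from both perinatal levels, while E19 and P2 lay close to each other. The intensity was 21.8-fold lower at E19 than in the adult (95% interval 16.6 to 28.6, log2 fold change -4.45, limma adjusted p = 8.81e-05). The P2 level was 15.5-fold under the adult one (95% interval 11.8 to 20.4, log2 fold change -3.95, limma adjusted p = 0.000136). Counted from the most strongly lowered gene, these changes took place 19 at E19 and place 18 at P2 among 10334 tested genes. P2 stood 1.41-fold above E19, a difference that did not pass the test (log2 fold change 0.49, limma adjusted p = 0.121).

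The array held 2 further Prlr probe sets, which are read here as a check on the first. Probe set 1370789_a_at gave 157 and 152 units at E19, 343 and 474 units at P2 and 4975 and 4122 units in the adult. Probe set 1369493_at gave 82.9 and 75.9 units at E19, 203 and 194 units at P2 and 2379 and 2730 units in the adult. Both repeated the order E19, P2, adult with no overlap between stages. By 1370789_a_at the adult level exceeded that of E19 by a factor of 29.3 and that of P2 by a factor of 11.2, E19 and P2 being the lower stages (log2 fold changes -4.87 and -3.49, limma adjusted p = 9.77e-05 and 0.000273). By 1369493_at it was at least 25.5-fold lower at E19, a bound set against 100 units because both E19 pools lay below that level, and 12.8-fold lower at P2 (limma adjusted p = 5.23e-05 and 8.55e-05). These 2 probe sets also rose between E19 and P2. The P2 level was 2.61-fold above E19 for 1370789_a_at (log2 fold change 1.38, limma adjusted p = 0.0259) and at least 1.98-fold above it for 1369493_at (adjusted p = 0.0161). Either call was lost when any of the 4 E19 and P2 arrays was left out, with adjusted p up to 0.144 and 0.119. Whether the probe sets differ in their change from E19 to P2 was not tested, and the files do not say which Prlr transcripts each of them reads.

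**Figure D2:**
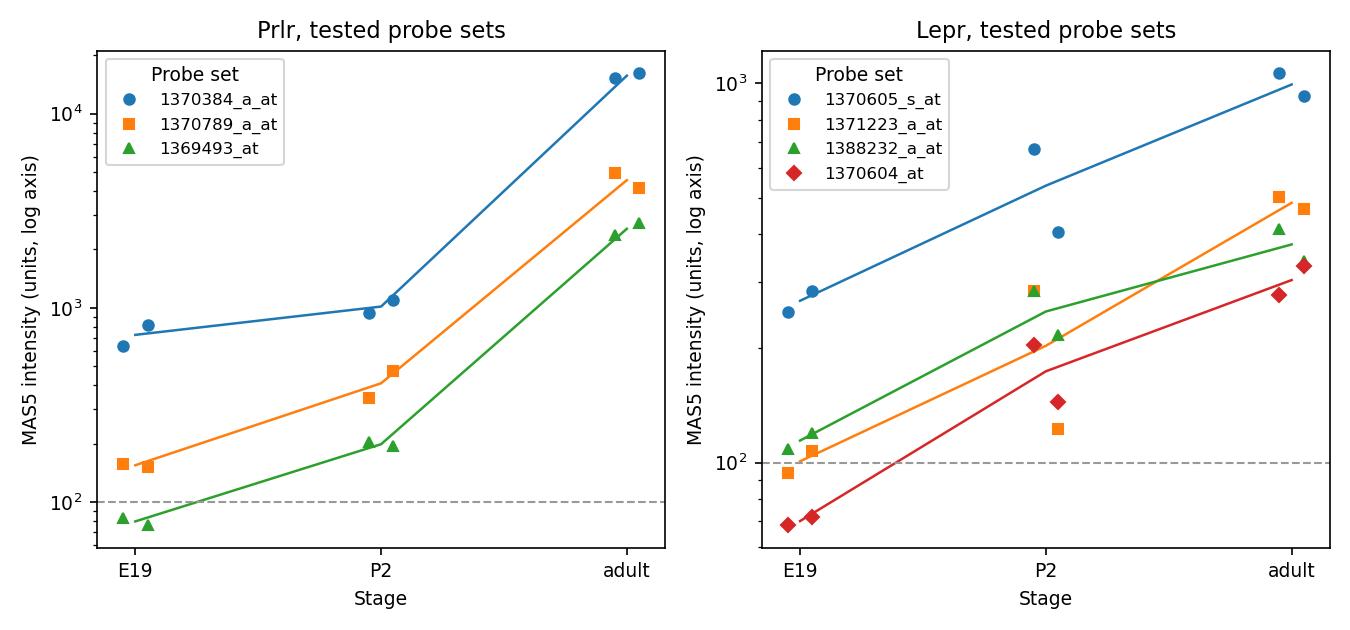
Intensity of the 3 tested Prlr probe sets (left) and the 4 tested Lepr probe sets (right) at E19, P2 and in the adult, in arbitrary units on log axes of different range. Points are single pools, lines join stage means, and the dashed line marks 100 units. All 3 Prlr probe sets rise more from P2 to the adult than from E19 to P2 on the log axis. The equal spacing of the stages does not stand for time. The P2 pools of Lepr lie between E19 and adult, with the first P2 pool above the second in each of the 4 sets.

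Prlr lies on rat chromosome 2, from base 60861391 to 61051883 in the RefSeq annotation of the build GRCr8, on the forward strand. The deposited values carry no build. RefSeq lists 2 promoter windows for the gene, each reaching from 250 bases before to 50 bases after a transcription start, and both are printed because Prlr carries the largest change. Capitals mark TTCNNNGAA, the pattern bound by STAT5 pairs, which reads the same on both strands and was the only motif searched. The first window spans chr2:60861515-60861814 and holds 0 matches, and the second spans chr2:60909409-60909708 and holds 1 match, which begins 176 bases before the start.
Prlr window 1: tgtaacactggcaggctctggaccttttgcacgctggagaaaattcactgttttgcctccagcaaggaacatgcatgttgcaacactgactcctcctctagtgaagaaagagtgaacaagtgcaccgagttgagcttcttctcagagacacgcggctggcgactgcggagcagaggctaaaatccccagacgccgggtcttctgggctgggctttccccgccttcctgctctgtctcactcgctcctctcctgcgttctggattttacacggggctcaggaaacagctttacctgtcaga
Prlr window 2: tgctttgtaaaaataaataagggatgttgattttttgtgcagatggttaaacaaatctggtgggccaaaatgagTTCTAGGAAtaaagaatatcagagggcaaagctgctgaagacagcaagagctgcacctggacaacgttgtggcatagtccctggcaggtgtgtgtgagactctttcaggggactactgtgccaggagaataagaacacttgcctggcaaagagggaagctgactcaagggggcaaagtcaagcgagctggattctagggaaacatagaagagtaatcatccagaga
Of all 33469 windows of this length, 8.87% held at least 1 match, so a single match is a common feature. It is a description of the sequence and not evidence of binding in this tissue.

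Among all 10334 tested genes, few had a profile close to that of Prlr. Likeness was taken as the Euclidean distance between log2 intensities over the 6 arrays after each gene was centred on its own mean. Only 2 genes came within a distance of 0.5 and 12 within 1. The values were not scaled, so a gene with a large change has few neighbours by its size alone. Stat5a, with a small change, had 5807 within 1. The nearest was Tgfb2, which encodes transforming growth factor beta 2, at a distance of 0.25. Tgfb2 read 243 and 281 units at E19, 397 and 382 units at P2 and 5479 and 5777 units in the adult. Next came Gadl1 at 0.40, Cltrn (collectrin, an amino acid transport partner) at 0.63, F5 (coagulation factor V) at 0.67 and Glycam1 at 0.76. Gadl1 read 66.1 and 71.2 units at E19, so its distance rests in part on values under 100 units. F5 read 1071 and 1244 units at E19, 1634 and 1559 units at P2 and 17613 and 16746 units in the adult.

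Lepr, the leptin receptor, was also lower before and after birth than in the adult, by a smaller factor. Its brightest probe set, 1370605_s_at, read 250 and 284 units at E19, 670 and 405 units at P2 and 1063 and 924 units in the adult. The means were 267 ± 23.9, 537 ± 187 and 993 ± 98.4 units (SD, n = 2 pools each). The stages kept the order E19, P2, adult without overlap, and the P2 pools lay far apart from each other. The intensity was 3.71-fold lower at E19 than in the adult (95% interval 2.37 to 5.82, log2 fold change -1.89, limma adjusted p = 0.00295). The P2 level was 1.90-fold under the adult one (95% interval 1.21 to 2.98, log2 fold change -0.93, limma adjusted p = 0.0323). The P2 call was lost without either E19 pool, without P2 pool 2 or without either adult pool (the log2 fold change was -0.56 without P2 pool 2). P2 stood 1.95-fold above E19, which did not pass the test (log2 fold change 0.97, limma adjusted p = 0.0858).

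The other 3 tested Lepr probe sets gave the same order. Probe set 1371223_a_at read 94.0 and 108 units at E19, 284 and 123 units at P2 and 502 and 466 units in the adult. Probe set 1388232_a_at read 109 and 120 units at E19, 284 and 217 units at P2 and 412 and 340 units in the adult. Probe set 1370604_at read 68.4 and 71.9 units at E19, 204 and 144 units at P2 and 276 and 330 units in the adult. All 4 were called lower at E19 and lower at P2 than in the adult. At E19 the factors of the 3 were 4.81 and 3.28, and at least 3.02 for 1370604_at, and at P2 they were 2.59, 1.51 and 1.76 (limma adjusted p from 0.000897 to 0.0395). The E19 calls held on leaving out any pool, while the P2 calls of these 3 were lost in 4, 5 and 2 of the 6 cases, and the log2 fold change of 1371223_a_at at P2 then ran from -1.98 to -0.77. Between P2 and E19 the calls split, since 1388232_a_at rose (log2 fold change 1.12, limma adjusted p = 0.0344), 1370604_at rose at least 1.72-fold, a bound set against 100 units (limma adjusted p = 0.0316), and the other 2 did not pass. Each of these calls was lost when any E19 or P2 array was left out, with adjusted p up to 0.171 for 1388232_a_at and 0.162 for 1370604_at. The 3 remaining Lepr probe sets stayed under 100 units on every array, between 0.82 and 36.4 units.

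Lepr lies on chromosome 5, from 121409735 to 121593201 (GRCr8), and its start overlaps Leprot, which encodes a small membrane protein named for this shared locus. Leprot read 2101 and 2072 units at E19, 2292 and 2372 units at P2 and 1758 and 1870 units in the adult. Its log2 fold change against the adult was 0.20 at E19, which did not pass the test and turned to -0.07 with median centring, and 0.36 at P2 (limma adjusted p = 0.0944 and 0.0195), a P2 call lost without any 1 of the E19 and P2 pools or adult pool 1. Leprot therefore did not share the lower perinatal level of Lepr. The nearest profiles to Lepr were those of Rell2 at a distance of 0.32, Thumpd3-as1 at 0.35, Ctss (cathepsin S) at 0.44, Aqp4 at 0.45 and Ampd3 at 0.46. Rell2 lay under 100 units on all 4 perinatal arrays and Ampd3 at E19, so their distances and places rest in part on values that have no order. Lepr had 5 genes within 0.5 and 341 within 1.

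Aqp4, the water channel of astrocyte end-feet, was on the list of glial markers. It read 194 and 233 units at E19, 710 and 404 units at P2 and 798 and 817 units in the adult. Its first P2 pool stood above its second, as for Lepr. The other glial markers with a probe set lay under 100 units in both P2 pools, so their order is not read. This order of the P2 pools was not particular to glial markers. The macrophage marker Mrc1 shared it, at 964 and 614 units, while Tyrobp of the same list had the opposite order, at 199 and 243 units. The summed intensity of the 7 astrocyte and oligodendrocyte markers with a probe set ran from 313 to 391 units at E19, from 588 to 986 units at P2 and from 1887 to 3639 units in the adult. Of these, 5 were tested, all 5 were lower at E19 and 3 were lower at P2 than in the adult, against 24.2% and 21.8% of all tested probe sets. Mbp (myelin basic protein) read 1989 and 656 units in the adult pools, against at most 77.0 units on the other arrays. The part of glial RNA in the Lepr values was not tested.

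Other cell types also moved with stage. The summed intensity of the 9 endothelial markers ran from 10503 to 10981 units at E19, from 9419 to 10164 units at P2 and from 1944 to 1982 units in the adult, and that of the 8 mural markers from 3842 to 4048, from 3975 to 4162 and from 840 to 895 units. The mural marker Myh11 went the other way at E19, at 199 against 334 units in the adult (limma adjusted p = 0.0219). Of 9 tested fibroblast and meninges markers 5 were higher and 3 lower at E19, and 5 and 4 at P2. Of 8 tested macrophage and myeloid markers 2 were higher at E19 and 6 at P2, and the others did not pass. The 8 markers of choroid plexus epithelium with a probe set summed to between 60566 and 62268 units at E19, 65613 and 68520 units at P2 and 74904 and 79559 units in the adult. Of these, 7 were tested, of which 3 were lower and 1 (Otx2) higher at E19, and 3 were lower at P2. Over all tested probe sets 24.2% were called lower and 30.4% higher at E19, and 21.8% and 27.4% at P2. Ttr (transthyretin), a defining gene of this epithelium, lay between 10837 and 14847 units on all 6 arrays. The factors under the adult level at E19 and P2 were 3.38 and 3.17 for Kl, 3.56 and 1.91 for Cldn2 and 1.70 and 1.30 for Enpp2 (limma adjusted p from 0.000222 to 0.0236). The part of cell composition and of epithelial maturation in the Prlr values was not tested. In RNA of whole plexuses, fewer cells of a type and less RNA per cell cannot be told apart.

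Ghr, the growth hormone receptor, was not above background. Its probe set 1373803_a_at read 39.4 and 49.7 units at E19, 71.8 and 62.3 units at P2 and 59.4 and 59.6 units in the adult. Its second probe set, 1368924_at, read 47.9 and 42.6 units at E19, 26.8 and 46.3 units at P2 and 18.5 and 49.9 units in the adult. Neither reached 100 units on any array, so no fold change is given, and a low level of the transcript cannot be told apart from background on these arrays. Ghr lies on chromosome 2, from 54269066 to 54532595 (GRCr8), on the same chromosome as Prlr.

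Jak2, the kinase that all 3 receptors share, was present at every stage and did not pass the test in any comparison. It read 217 and 187 units at E19, 172 and 234 units at P2 and 110 and 164 units in the adult. Both adult pools lay under the 4 perinatal ones, and E19 and P2 overlapped. The log2 fold change was 0.58 at E19 against the adult (95% interval -0.05 to 1.21, limma adjusted p = 0.101), 0.58 at P2 against the adult (95% interval -0.06 to 1.21, limma adjusted p = 0.110) and -0.01 at P2 against E19 (95% interval -0.64 to 0.63, limma adjusted p = 0.991). Without adult pool 2 both differences against the adult were called, at 0.87 and 0.86 on the log2 scale.

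Stat5a, a transcription factor activated by Jak2, was modestly lower at E19. It read 194 and 187 units at E19, 227 and 187 units at P2 and 257 and 313 units in the adult. The adult pools lay above all others, and E19 and P2 overlapped. The intensity was 1.49-fold lower at E19 than in the adult (95% interval 1.15 to 1.93, log2 fold change -0.58, limma adjusted p = 0.0239), a call that was lost without either E19 pool or without adult pool 2 (-0.43 on the log2 scale). At P2 the log2 fold change against the adult was -0.46 (95% interval -0.84 to -0.08, limma adjusted p = 0.0508), just outside the threshold. It was called with median centring (-0.72), quantile normalization (-0.64), a filter at 200 units, a floor at 100 units, the mean of probe sets or without adult pool 1 (-0.60), and it was -0.32 without P2 pool 2 or adult pool 2, where it was not called. Stat5b, the close relative of Stat5a, was under 100 units on every array, with 34.1 and 48.3 units at E19, 56.4 and 35.8 units at P2 and 56.1 and 87.3 units in the adult. The pair are neighbours on chromosome 10, Stat5b from 86205148 to 86276178 and Stat5a from 86285859 to 86310187 (GRCr8), and are closely similar in sequence, so how far each probe set reads its own gene alone is uncertain.

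**Figure D3:**
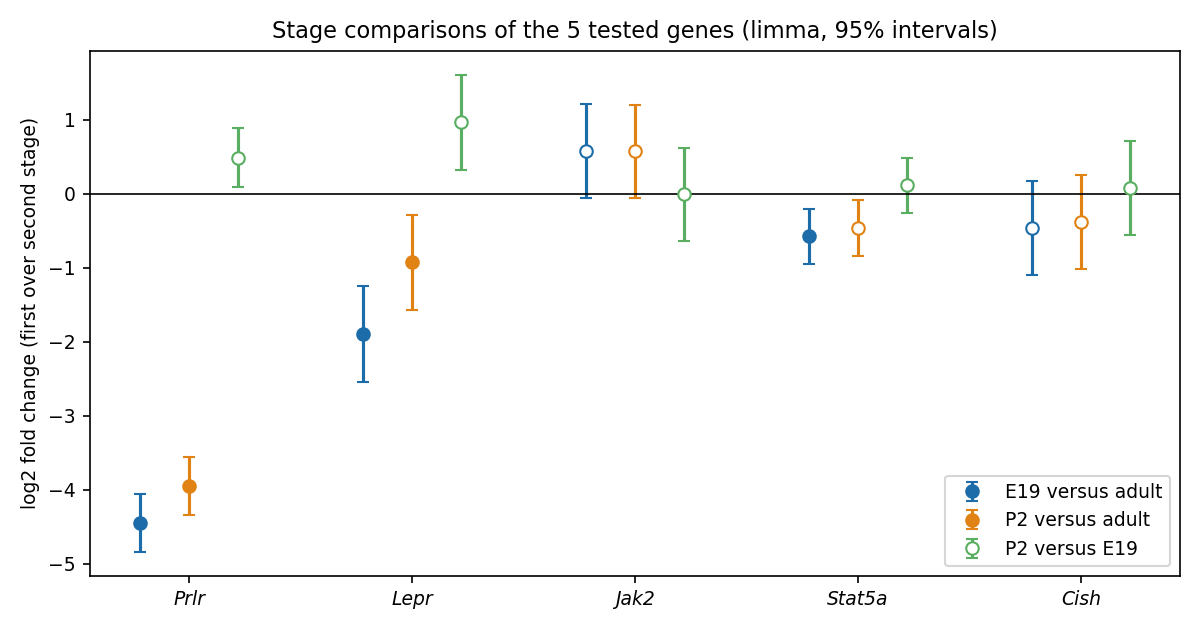
Log2 fold changes of the 5 tested genes between stages, from limma, with 95% intervals. For each gene the points run E19 versus adult (blue), P2 versus adult (orange) and P2 versus E19 (green), filled where the adjusted p is under 0.05 and open where it is not. Prlr lies at -4.45 and -3.95 against the adult, Lepr at -1.89 and -0.93, and the other 3 genes stay within 0.58 of 0.

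Cish, a SOCS-box inhibitor that STAT5 induces, was measured at similar levels throughout. Its probe set 1378586_at read 143 and 230 units at E19, 196 and 189 units at P2 and 281 and 222 units in the adult. E19 overlapped both other stages, and P2 lay under the adult. The log2 fold changes were -0.46 at E19 against the adult (95% interval -1.10 to 0.18, limma adjusted p = 0.175), -0.38 at P2 against the adult (95% interval -1.02 to 0.26, limma adjusted p = 0.259) and 0.08 at P2 against E19 (95% interval -0.56 to 0.72, limma adjusted p = 0.862). The E19 difference was called without E19 pool 2, at -0.80, and with median centring, at -0.74, but without E19 pool 1 it was -0.12 and not called. A second Cish probe set, 1388233_at, stayed between 3.39 and 49.5 units. The intervals still allow a change of up to 2.14-fold at E19 and 2.02-fold at P2.

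Cish lies on chromosome 8, from 116850969 to 116855917 (GRCr8), on the forward strand. Its promoter window, chr8:116850719-116851018, is printed because it is the STAT5 target among these genes whose window holds most copies of the motif, again in capitals.
Cish window 1: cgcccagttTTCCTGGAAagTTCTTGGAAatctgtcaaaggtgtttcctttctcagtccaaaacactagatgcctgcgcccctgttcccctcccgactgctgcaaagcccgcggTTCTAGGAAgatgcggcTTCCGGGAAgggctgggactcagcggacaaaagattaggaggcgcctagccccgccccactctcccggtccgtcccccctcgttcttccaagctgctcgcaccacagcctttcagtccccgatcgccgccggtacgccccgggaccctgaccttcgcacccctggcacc
The window holds 4 matches to TTCNNNGAA, which begin 241, 230, 136 and 119 bases before the start. Of all 33469 windows, 0.547% held at least 2 matches, 0.0239% at least 3 and 0.00598% at least 4, which is 2 windows. Windows were found for 8 of the 9 genes, and those of Ghr, Lepr, Jak2, Stat5a, Stat5b and Socs3 held 0 matches, which says only that these letters are not in the window. The match in Prlr window 2 and 1 of the 4 in Cish, at 136 bases before the start, share the letters TTCTAGGAA.

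Socs2, which restrains growth hormone signalling, read 41.9 and 45.7 units at E19, 19.2 and 25.4 units at P2 and 7.43 and 8.08 units in the adult. The pools did not overlap between stages, but every value was under 100 units, and values under that level are given no order. Socs3, the inhibitor best known for its action on leptin signalling, read 46.3 and 28.8 units at E19, 16.8 and 43.9 units at P2 and 84.2 and 7.45 units in the adult. The adult pools of Socs3 enclosed all other values. Socs2 lies on chromosome 7, from 31890564 to 31932092, and Socs3 on chromosome 10, from 103692579 to 103695975 (GRCr8).

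The hormones themselves were not measured above background in the plexus. Of 9 ligand and hormone genes listed, 8 had a probe set, and all 8 stayed under 100 units at every stage. Prl (prolactin) reached at most 21.9 units, Gh1 (growth hormone) at most 41.3 units and Lep (leptin) at most 3.89 units. Of 8 pituitary hormone cell markers, 7 were likewise under 100 units, and Lhb, at 592 and 643 units at E19, 610 and 566 units at P2 and 451 and 427 units in the adult, was the exception.

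The wider pathway moved in both directions. The lists held 87 names in 6 groups beside the 9, which are 85 genes since Il6r and Sh2b3 were each listed under a second name too. Of these, 78 had a probe set and 46 were tested. At E19, 16 were higher, 10 were lower and 20 did not pass against the adult, and at P2 the counts were 15, 10 and 21. The 15 include Elf5, which lay under 100 units in all P2 and adult pools, so its order there is not read. These counts were near the shares of all probe sets given above, and the medians were -0.02 and 0.04. The groups within the lists are small, and none was tested as a set. Between P2 and E19, 2 were higher, 1 was lower and 43 did not pass.

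**Figure D4:**
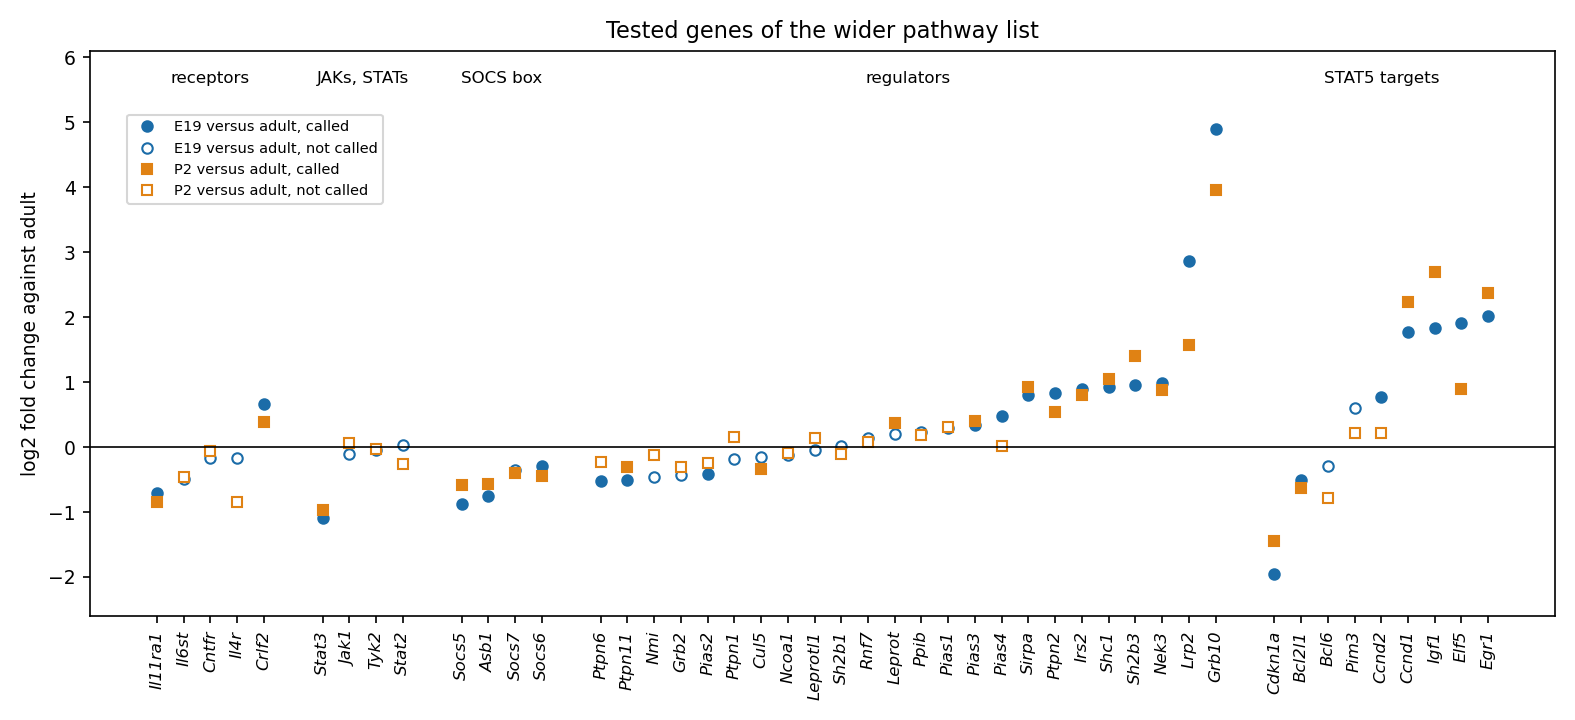
Log2 fold changes against the adult of the 46 tested genes of the wider pathway lists, by group, at E19 (blue circles) and P2 (orange squares). Filled symbols have an adjusted p under 0.05, open symbols do not. The P2 symbol of Elf5 rests on values under 100 units in both stages. Grb10 is highest, at 4.90 and 3.96, and Cdkn1a is lowest, at -1.95 and -1.44.

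Of the other class I cytokine receptors 5 were tested, and 1 was higher and 1 lower at both E19 and P2. These counts were near the shares over all tested probe sets, 30.4% higher and 24.2% lower at E19 and 27.4% and 21.8% at P2. Il11ra1, the interleukin 11 receptor, read 532 and 538 units at E19, 508 and 468 units at P2 and 820 and 930 units in the adult. It lay 1.63-fold under the adult level at E19 and 1.79-fold under it at P2 (limma adjusted p = 0.00385 and 0.00274). Crlf2, part of the receptor for thymic stromal lymphopoietin, lay 1.58-fold above the adult level at E19 and 1.30-fold above it at P2 (limma adjusted p = 0.00737 and 0.0445), and its E19 call was lost with median centring and its P2 call with most alternatives. Il6st (gp130), the shared receptor chain of the interleukin 6 family, read 1563 and 1470 units at E19, 1880 and 1274 units at P2 and 2215 and 2051 units in the adult, and did not pass (limma adjusted p = 0.0859 at E19 and 0.107 at P2).

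Among the other Janus kinases and STATs 4 were tested, and Stat3 alone was called, as lower than in the adult at E19 and P2. Over all tested probe sets 24.2% were called lower at E19 and 21.8% at P2. Stat3, which carries leptin and interleukin 6 signals, read 520 and 498 units at E19, 682 and 443 units at P2 and 1110 and 1053 units in the adult. Its level was 2.12-fold under that of the adult at E19 and 1.97-fold under it at P2 (log2 fold changes -1.09 and -0.98, limma adjusted p = 0.00989 and 0.0159). The E19 call was lost without E19 pool 2 and the P2 call without either adult pool. Jak1 read 2502 and 2527 units at E19, 2886 and 2770 units at P2 and 2628 and 2773 units in the adult, with log2 fold changes against the adult of -0.10 at E19 and 0.07 at P2 (limma adjusted p = 0.343 and 0.533).

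Of the other SOCS-box genes 4 were tested, of which 3 were lower at E19 and all 4 were lower at P2 than in the adult. The shares of all tested probe sets called lower were 24.2% and 21.8%. Socs5 read 1139 and 1063 units at E19, 1268 and 1433 units at P2 and 1964 and 2087 units in the adult, and lay under the adult by 1.84-fold at E19 and by 1.50-fold at P2 (limma adjusted p = 0.00195 and 0.00845). For Asb1 the factors below the adult were 1.69 at E19 and 1.48 at P2 (limma adjusted p = 0.00400 and 0.0123). The changes of Socs6 and Socs7 stayed between -0.29 and -0.44 on the log2 scale, and the Socs6 call at E19 and the Socs7 call at P2 were each lost when any of several single pools was left out.

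Regulators of receptor signalling held the largest single change of the wider lists, that of Grb10. Their median log2 fold change against the adult was 0.22 at E19 and 0.17 at P2. Of 24 tested, 10 were higher at E19 and 3 lower, and 10 were higher at P2 and 2 lower. Among all tested probe sets 30.4% were called higher and 24.2% lower at E19, and 27.4% and 21.8% at P2. Grb10, an imprinted adaptor that restrains insulin and growth factor receptors, read 4232 and 3892 units at E19, 2172 and 2052 units at P2 and 196 and 94.4 units in the adult. E19 exceeded the adult 29.8-fold and P2 exceeded it 15.5-fold (log2 fold changes 4.90 and 3.96, limma adjusted p = 0.000420 and 0.000976). The size of these folds is uncertain, since the adult pools lay far apart and 1 of them under 100 units. On leaving out 1 pool the log2 fold change ran from 4.37 to 5.43 at E19 and from 3.43 to 4.48 at P2. Sh2b3, the adaptor Lnk that binds Jak2 and restrains it, exceeded its adult level 1.93-fold at E19 and 2.65-fold at P2 (limma adjusted p = 0.00113 and 0.000493). Ptpn2, a phosphatase of Janus kinases and STATs, exceeded it 1.79-fold at E19 and 1.46-fold at P2 (limma adjusted p = 0.00124 and 0.00583), the P2 call being lost with median centring. Other regulators went the other way. The 3 lower at E19 were Ptpn6, Ptpn11 and Pias2, at log2 fold changes of -0.53, -0.51 and -0.42 (limma adjusted p = 0.0143, 0.00915 and 0.0176). Ptpn1 did not pass at either stage. Shc1, Irs2 and Nek3 were also among those higher at E19, at 0.93, 0.89 and 0.98.

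Lrp2 (megalin), an endocytic receptor that takes up leptin among many other ligands, ran opposite to Lepr. It read 1067 and 1001 units at E19, 520 and 342 units at P2 and 138 and 145 units in the adult. E19 stood 7.31-fold above the adult and P2 2.98-fold above it (log2 fold changes 2.87 and 1.57, limma adjusted p = 0.000457 and 0.00342).

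Genes on the list of known STAT5 targets did not all move in 1 direction. Of 20 listed, 9 were tested, and 5 were higher and 2 lower at E19, and 4 higher and 2 lower at P2. Over all tested probe sets 30.4% were called higher and 24.2% lower at E19, and 27.4% and 21.8% at P2. Elf5 is counted as higher at both stages. It read 106 and 110 units at E19, 50.2 and 56.7 units at P2 and 35.1 and 23.5 units in the adult. At E19 it was at least 1.08-fold above the adult, and that call was lost with a floor at 100 units. Its P2 call rests on values under 100 units alone, which are given no order. Igf1, the growth factor that growth hormone induces in liver, read 517 and 468 units at E19, 972 and 820 units at P2 and 135 and 141 units in the adult, and exceeded the adult 3.57-fold at E19 and 6.47-fold at P2 (limma adjusted p = 0.000359 and 0.000184). Ccnd1 (cyclin D1) exceeded its adult level by 3.43-fold at E19 and by 4.71-fold at P2 (limma adjusted p = 0.000175 and 0.000136). Cdkn1a, which encodes the cell cycle inhibitor p21, lay below its adult level by 3.86-fold at E19 and by 2.71-fold at P2 (limma adjusted p = 0.000253 and 0.000757). The milk protein genes Csn2, Csn3, Wap and Lalba, the classical prolactin targets of the mammary gland, stayed under 100 units on every array.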

How the data were processed

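RNA of pooled lateral ventricle choroid plexuses was hybridized to Rat Genome 230 2.0 arrays, 1 pool per array and 2 per stage. The authors deposited linear signal intensity computed with Affymetrix Expression Console and MAS5 (versions not given in the sources used here), scaled per array. The 2% trimmed mean was 500 units on each array, and between 50.0% and 53.5% of probe sets per array reached 100 units. The number of arrays limits the precision. Of 31099 probe sets, 57 were controls, 20832 were annotated to 1 gene, 436 to several and 9831 to none, and only those of 1 gene were named.

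A single limma fit (version 3.58.1, R 4.3.3) of log2 intensity on all 6 arrays estimated 1 mean per stage, with 3 residual and 2.15 prior degrees of freedom. A probe set whose mean reached 100 units at any stage was tested, 17808 in all, with Benjamini-Hochberg adjustment over all of them in each comparison. Where both pools of 1 stage lay under 100 units a fold is a bound against 100, and no fold is given where both stages did. The script was tested on simulated data. All 9 genes are named, genes of the pathway and marker lists may be named, and so may the 5 nearest profiles of each tested gene. Members and lists were chosen with earlier results of these data known. Alternatives were the filter, the scaling, a floor, the spread estimate, the threshold, the replicate block, the probe set and leaving out each array. Promoter sequences and positions are from RefSeq (GRCr8). The array gene numbers of 68 genes had no match in that table and kept their names, and 7 of the 85 listed pathway genes were not analysed here.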

Additional observations from a re-analysis of the deposited data

Results flagged for a closer look

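Stages P2 and E19 differed from the adult by different amounts for 4 probe sets of the receptor genes, by the limma test of P2 against E19 itself. The log2 fold change of P2 over E19 was 1.38 for Prlr probe set 1370789_a_at and 1.12 for Lepr probe set 1388232_a_at. The fitted values were 1.32 for Prlr probe set 1369493_at and 1.29 for Lepr probe set 1370604_at, but both E19 pools of these lay under 100 units, so that only a rise of at least 1.98-fold and at least 1.72-fold can be stated. None of the 4 is the brightest probe set of its gene, and with those Prlr gave 0.49 and Lepr 0.97, which did not pass. The adjusted p of the 4 ran from 0.0161 to 0.0344. Leaving out any E19 or P2 pool ended each of these calls, and the replicate block ended 3 of them (adjusted p = 0.0635, 0.0698 and 0.0633 for 1370789_a_at, 1370604_at and 1388232_a_at, against 0.0493 for 1369493_at). Groups of 2 pools are too small for a test of single outlying pools.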

How the results depend on the processing

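Prlr kept its direction and its call against the adult in all 38 alternatives at E19 and P2, its other 2 probe sets included. Of 270 alternatives for the 5 tested genes, 235 kept direction and side of the threshold, 17 gained a call, 13 lost one and 5 turned direction. All 5 turned at P2 against E19, where the gene was not called, namely Jak2 at 0.016 with median centring, and on leaving out 1 pool Jak2 (-0.23 to 0.22), Stat5a (-0.027 to 0.26) and Cish (-0.26 to 0.42). The members called at P2 against the adult numbered 2, and 1 with no filter, with only the 2 stages compared or at an adjusted p under 0.01, 3 with a filter at 200 units, median centring, quantile normalization, a floor or the mean of probe sets, and 1 to 2 on leaving out a pool (1 without E19 pool 1, E19 pool 2 or P2 pool 2). Against E19 the count at P2 was 0, 2 with an intensity trend and 1 with the mean of all probe sets. The pathway genes called at P2 against the adult numbered 25, 14 with no filter, 13 at an adjusted p under 0.01 and 16 to 21 on leaving out a pool (16 without P2 pool 2). Pathway genes called at P2 against E19 numbered 3, 7 with a filter at 200 units, with a floor or with the mean of probe sets, 5 with quantile normalization, 8 with an intensity trend, 0 with no filter or at an adjusted p under 0.01, and 0 to 4 on leaving out a pool (0 without any 1 of the E19 and P2 pools).

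Over all probe sets, 9732 were called at E19 against the adult, 6057 at an adjusted p under 0.01 and 6465 to 9392 on leaving out a pool (6465 without E19 pool 2). At P2 against the adult 8765 were called, 5626 with no filter and 4926 at an adjusted p under 0.01. At P2 against E19 1269 were called, 2287 with a floor at 100 units, 2696 with an intensity trend, 0 with no filter or at an adjusted p under 0.01, and 0 to 1094 on leaving out a pool (0 without any 1 of the E19 pools or P2 pool 2, 6 without P2 pool 1). With no filter more probe sets are tested, and without a pool fewer arrays are. The cause of the other differences was not tested. Replicate numbers did not pair the pools, since deviations of same-numbered pools correlated at -0.06, -0.04 and 0.01. With the replicate block, 121 probe sets and 0 pathway genes were called at P2 against E19, and the counts of the members were 3, 2 and 0, as without it, but 3 of the 4 further Prlr and Lepr probe sets called at P2 against E19 lost their call. Signal near 100 units limits Cish, Jak2 and Stat5a, and leaves Ghr, Stat5b, Socs2 and Socs3 without a comparison.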
